A study of Mus musculus with 12 samples.

Results

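GFP-positive cells sorted from the olfactory mucosa of mice given a citrus odor were compared with GFP-positive cells of mice given filtered air, on 6 of the 12 arrays of the study. In the comparison were the 3 arrays titled as odor and the 3 titled as vehicle whose cells were GFP-positive. It was made over 19938 genes, each represented by the probe set with the highest mean among those annotated with exactly 1 symbol. Of these genes 1027 were odorant receptors, by symbols that start with Olfr and a number, and 18911 were other genes.

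All 18 mice carried S100a5-tauGFP, a reporter that places a tau-fused green fluorescent protein under the control of S100a5, were of both sexes and were 7 to 12 weeks old. Each was kept singly for 40 hours in a chamber fed with clean air at 3.1 L per minute, and the stimulation ran from hour 26 on. The vehicle group received filtered air and the odor group a citrus accord, a perfumer's blend given as 5% in the series title, in pulses of 10 seconds every 20 minutes. The labels do not say what the accord is made of. Each array held the RNA of cells pooled from 3 mice, so the 3 arrays of a group came from 3 pools, and differences between single mice are averaged within a pool. The sort leaves every cell that passes the GFP gate in 1 sample, so fewer cells of a type and less RNA per cell cannot be told apart.

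Each mature olfactory sensory neuron transcribes 1 odorant receptor gene, and the receptor's G protein, adenylyl cyclase and cyclic nucleotide channel turn odor binding into an electrical signal. S100a5 encodes a calcium-binding protein whose transcription in these neurons rises with their activity. In the assay named in the series title the reporter therefore sorts neurons that have been active, and a receptor whose neurons the odor activates is looked for as a transcript that is more abundant in the GFP-positive cells of stimulated mice.

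The sorted cells carried the markers of mature sensory neurons. Omp, the olfactory marker protein gene, lay between 13.45 and 13.51 (log2 signal) in the 6 GFP-positive arrays and between 13.04 and 13.29 in the 6 GFP-negative arrays. Kirrel2, an adhesion gene that follows the activity of sensory neurons, lay between 11.97 and 12.38 against 10.63 and 11.12, with a difference between the fractions of vehicle mice of 1.25 (SE 0.14, adjusted p = 2.21e-05, limma). Trpm5, a channel gene of microvillous and tuft cells, was low at 6.67 to 6.96 in GFP-positive cells against 9.79 to 10.28. Dcx, a gene of immature neurons, lay at 10.76 to 10.97 in GFP-positive cells and was 0.67 higher there in vehicle mice (SE 0.11). Immature neuron genes together averaged 8.87 to 8.98 against 9.11 to 9.43 in GFP-negative cells. Genes of sustentacular, or supporting, cells averaged 7.58 to 8.04 against 9.26 to 9.57. The share of other cell types in the sorted fraction was not tested. S100a5 itself separated the fractions little, at 6.29 to 6.48 against 5.83 to 6.23 (difference in vehicle mice 0.19, SE 0.10, adjusted p = 0.123, limma). Its probe set lay below the median of all probe sets on every array, and how well it follows S100a5 RNA was not tested. Array medians over all probe sets ran from 7.04 to 7.09 in the 6 GFP-positive arrays, and these arrays correlated with r of 0.994 to 0.996 within a group and 0.995 to 0.997 between the treatments.

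Olfr747, an odorant receptor gene, was the only gene of 19938 past an adjusted p of 0.05 in limma, and it was higher in odor mice. The call was therefore 0.00502% of the genes tested, with 1 gene higher and 0 lower. In vehicle mice the probe set read 5.88, 6.33 and 6.22 in replicates 1, 2 and 4, and in odor mice 7.51, 8.05 and 7.56 in replicates 2, 3 and 4. The lowest odor array lay above the highest vehicle array by more than the range of either group. The means were 7.71 ± 0.30 and 6.14 ± 0.24 (SD, n = 3 pools each), a 2.96-fold difference (log2 1.57, 95% interval 1.20 to 1.94, SE 0.17, adjusted p = 0.0152, limma over all genes). It had both the largest rise and the smallest p of all genes tested.

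The size of the Olfr747 difference held across the fits tried, and its call did not in all of them. Arrays whose codes in the sample titles share a number deviated together, and the 3 odor minus vehicle differences within these pairs were 1.64, 1.72 and 1.35. This pairing was chosen from the correlations of the same arrays, and the main fit did not use it. With the code number as a replicate block the adjusted p was 0.00402 over 12 arrays and 0.0746 over the GFP-positive arrays alone (limma), the latter with 0 genes called. In 11 of 20 alternative fits the call held, and the difference stayed between 1.40 and 1.66 over the 20. Without odor replicate 3 the adjusted p was 0.0602, without odor replicate 4 0.0626, without vehicle replicate 1 0.106 and without vehicle replicate 4 0.0998 (limma).

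In GFP-negative cells of the same pools Olfr747 went the other way. The vehicle arrays read 6.37, 6.53 and 5.99 and the odor arrays 5.80, 5.73 and 5.55, so the groups did not overlap there either. The difference was -0.61 (SE 0.17) and did not pass over all genes (adjusted p = 0.732, limma). The odor effect on Olfr747 differed between the fractions by 2.17 (SE 0.24, adjusted p = 0.0186, limma), the only gene past that test of 19938 (0.00502%). That adjusted p was 0.0507 without odor replicate 4, 0.0593 without vehicle replicate 1 and 0.0765 without vehicle replicate 4. In vehicle mice the difference of Olfr747 between the fractions was -0.16 (SE 0.17, adjusted p = 0.506, limma).

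**Figure D1:**
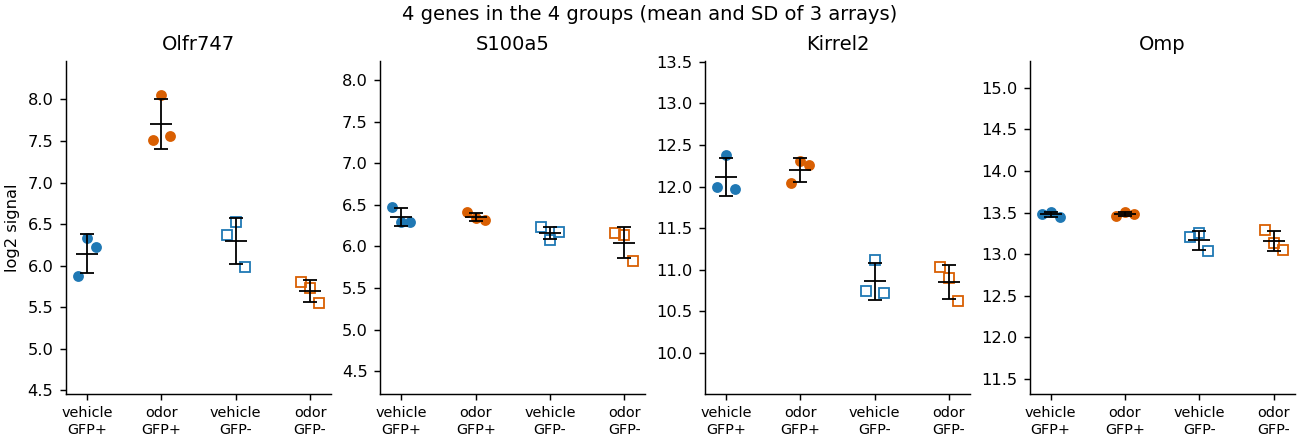
Log2 signal of Olfr747, S100a5, Kirrel2 and Omp in vehicle and odor mice, with GFP-positive cells as filled circles and GFP-negative cells as open squares; bars give the mean and SD of 3 arrays, and each panel spans the same number of log2 units. Olfr747 separates odor from vehicle in GFP-positive cells (means 7.71 and 6.14), and S100a5, Kirrel2 and Omp differ between the treatments by 0.00, 0.09 and 0.01 there.

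The start of Olfr747 is given here to place the 1 gene that was called. In RefSeq's GRCm38.p6 annotation it lies on the minus strand of chromosome 14, and the 250 bases just before its annotated start, chr14:50681646-50681895, read as follows, 5′ to 3′ on the gene's strand, with TAAT and its reverse complement in capitals, the core that homeodomain factors such as Lhx2 and Emx2 bind.
Olfr747: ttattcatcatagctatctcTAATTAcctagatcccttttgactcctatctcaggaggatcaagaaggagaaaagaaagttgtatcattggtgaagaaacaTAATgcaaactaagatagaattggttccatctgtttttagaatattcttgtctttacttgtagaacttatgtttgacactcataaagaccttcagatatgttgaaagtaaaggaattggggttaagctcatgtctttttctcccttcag
The window holds 3 matches, 2 of which overlap in the first capital stretch. On either strand TAAT occurs in 93.7% of the 948 receptor windows and in 54.9% of all 32851 windows of this length, so its presence does not set Olfr747 apart. Whether transcription starts at this position was not tested.

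Olfr747 belongs to the receptor family MOR106, which has 12 other measured members, Olfr736, Olfr738 to Olfr746, Olfr748 and Olfr749. None of them showed such a rise. Their differences ran from -0.62 to 0.34, 4 of 12 were above 0, and all 12 had an upper 95% bound below the lower bound of Olfr747, 1.20. Of all 1027 receptors 96.3% had an upper bound below 1, so those bounds do not set the family apart. Olfr746 read 5.06, 4.28 and 5.07 in odor mice and 4.92, 4.91 and 5.01 in vehicle mice, and Olfr748 read 5.21, 4.38 and 5.00 against 4.67, 5.03 and 5.33. For both the treatments overlap. Olfr745 read 11.23, 10.62 and 10.04 against 10.58, 10.64 and 10.53, so its 3 odor arrays spread around the vehicle values. Olfr743 had the lowest difference (-0.62, SE 0.21), with 5.07, 5.23 and 4.74 against 6.11, 5.70 and 5.10, which overlap. Receptor genes are near copies of one another, and how far each probe set also binds a relative's RNA was not tested.

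**Figure D2:**
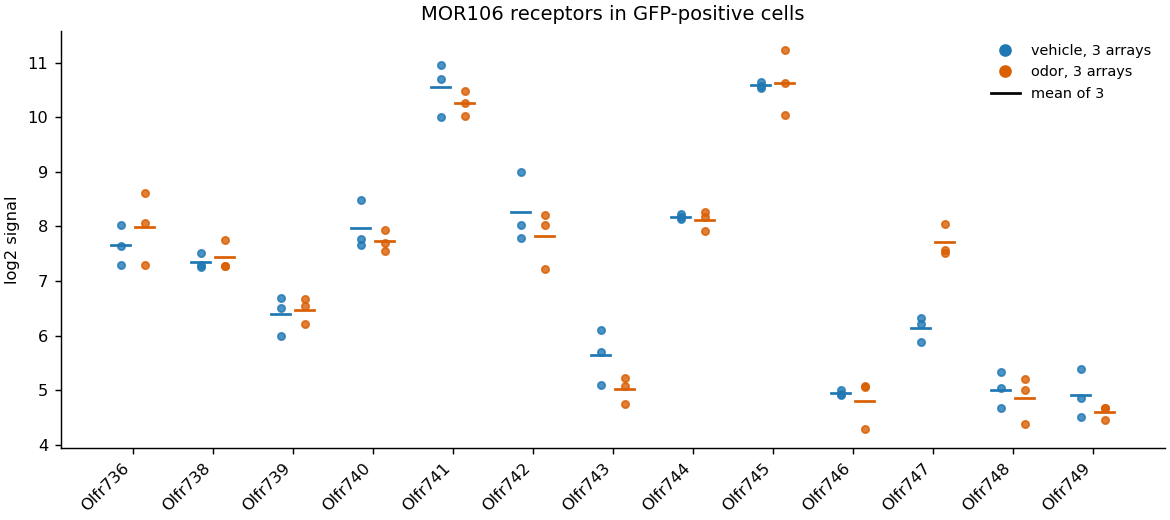
Log2 signal of the 13 MOR106 receptors in GFP-positive cells, with vehicle arrays in blue and odor arrays in orange, 3 points each and a bar for their mean. Olfr747 is the member whose 3 odor arrays, 7.51 to 8.05, all lie above its vehicle arrays. The groups of the 12 other members overlap, as those of most receptors do (4.77% of all receptors and 7.93% of all genes do not overlap).

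Beyond Olfr747 the receptors as a family showed no call in either direction. The counts that follow are over all receptors and include Olfr747. In limma 32 of 1027 had an unadjusted p under 0.05 (3.12%, against 1.3% of all genes). Of these 10 were higher, where 0.848% of all genes were, and 22 were lower, where 0.451% were. In this fit the 3.12% and the 1.3% both lie below a share of 0.05, which evenly spread p values would give. For receptors that depended on the fit. With the 2 GFP-positive groups alone 73 of 1027 had such a p, and 144 when those groups were also paired by code number. Array weights gave 93, the title number as block 54 and leaving out odor replicate 2 57. These counts lie above that share, and those of most other fits lie below it. All genes stayed below it in every fit. Groups did not overlap for 15 receptors with odor higher (1.46%, against 4.49% of all genes) and for 34 with odor lower (3.31%, against 3.45%). By that measure the receptors' shares were no higher than those of all genes in either direction. The median receptor differed by -0.05, with 387 of 1027 above 0, against a median of 0.00 and 52.5% above 0 over all genes. The median turned to 0.01 when the number in the sample titles was the block and to 0.03 with receptors centred on their own array median.

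Array by array, the receptor medians were 7.72, 7.49 and 7.59 in odor mice and 7.62, 7.69 and 7.72 in vehicle mice. They overlap, and their group means differed by -0.0796 (exact two-sided permutation p = 0.3, where 0.1 is the smallest p that 20 splits allow). Precision was lower for receptors than for other genes: the median standard error was 0.221, against 0.0953. For 989 of the 1027 receptors (96.3%) the upper 95% bound lay below 1 (log2), and for 921 (89.7%) both bounds lay within 1 of 0, which limits the size of any change not called.

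**Figure D3:**
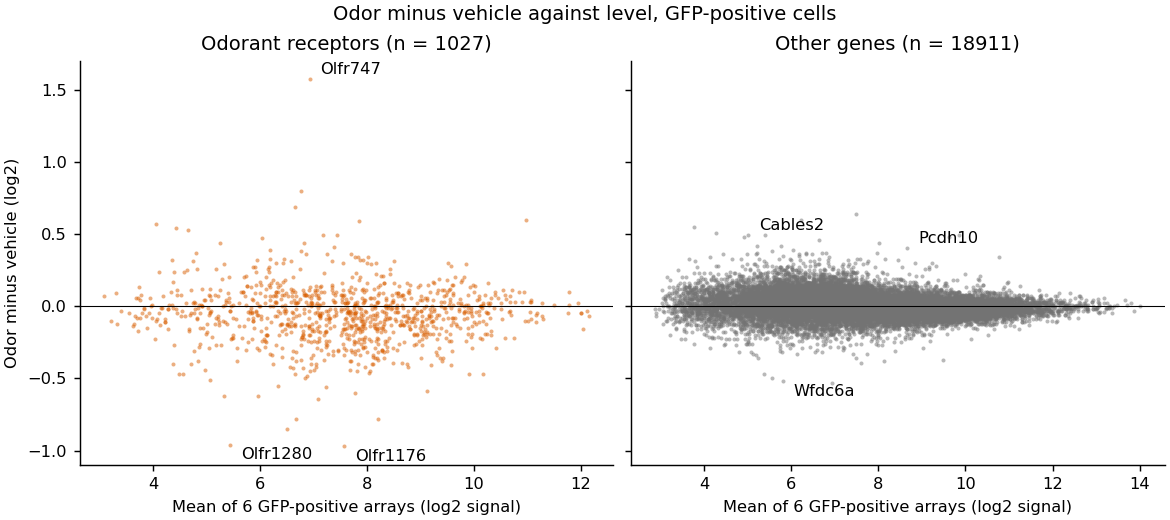
Odor minus vehicle difference (log2) against the mean of the 6 GFP-positive arrays (log2 signal), each point a gene, with odorant receptors on the left and other genes on the right. Receptors spread more widely around 0 than other genes (median standard errors 0.221 and 0.0953), and Olfr747 at 1.57 is the single gene past 1.

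The receptors next in line on the higher side were small or variable differences. Olfr1200 had 11, 11.4 and 11.4 in odor mice and 10.44, 10.67 and 10.88 in vehicle mice, with no overlap (difference 0.60, SE 0.23). Olfr564 read 4.91, 4.99 and 4.95 against 4.65, 4.73 and 4.69, a tight but small separation (0.26, SE 0.08). Olfr577, like Olfr564 a class I receptor, read 6.19, 6.4 and 6.27 against 6.05, 6.04 and 5.96 (0.27, SE 0.09). Olfr151, the M71 receptor that responds to acetophenone, read 5.26, 5.41 and 5.21 against 4.87, 5.03 and 5.21, where the groups almost touch (0.26, SE 0.11). The other 5 non-overlapping receptors with the smallest p, Olfr1489, Olfr1130, Olfr1462, Olfr600 and Olfr1402, differed by 0.13 to 0.37. All of these but Olfr747 had an adjusted p of 1 in limma. Larger differences with overlapping arrays, named after their values were seen, were those of Olfr460 (0.80, SE 0.34), with odor arrays at 6.34, 7.62 and 7.53 against 6.55, 5.70 and 6.85, and of Olfr237 (0.69, SE 0.25), with 7.13, 6.62 and 7.20 against 5.87, 6.82 and 6.20.

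On the lower side Olfr1280 came closest to a call and did not pass. Its arrays read 4.87, 5.28 and 4.75 in odor mice and 6.24, 5.86 and 5.66 in vehicle mice, which do not overlap (difference -0.96, 95% interval -1.29 to -0.62, adjusted p = 0.421 in limma). The odor values lie below the lower quartile of all probe sets on their arrays, 5.75 to 5.78. Olfr1204 read 6.36, 5.65 and 6.22 against a narrow 6.88, 7.01 and 6.89 (-0.85, SE 0.22). Olfr1308 read 6.58, 6.83 and 6.87 against 7.52, 7.50 and 7.17 (-0.64, SE 0.16). All 3 were higher in GFP-positive than in GFP-negative cells of vehicle mice, by 1.45, 2.35 and 1.54. The same vehicle arrays enter both differences, so the choice of these receptors favors that direction. Receptors together averaged 7.52 to 7.59 in GFP-positive arrays of vehicle mice and 6.63 to 7.19 in GFP-negative arrays of both treatments. The other 7 by the same rule, Olfr190, Olfr576, Olfr292, Olfr420, Olfr1339, Olfr424 and Olfr553, differed by -0.78 to -0.28, each with an adjusted p of 1. Between the fractions of vehicle mice Olfr292 had -0.20, and the rest of these 7 had 0.40 to 2.21. The vehicle arrays are shared between both differences here too. Olfr1176 had the lowest difference of all genes (-0.97, SE 0.42) on scattered arrays, 6.23, 6.93 and 8.07 against 7.45, 8.92 and 7.77, and was named after its values were seen.

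**Figure D4:**
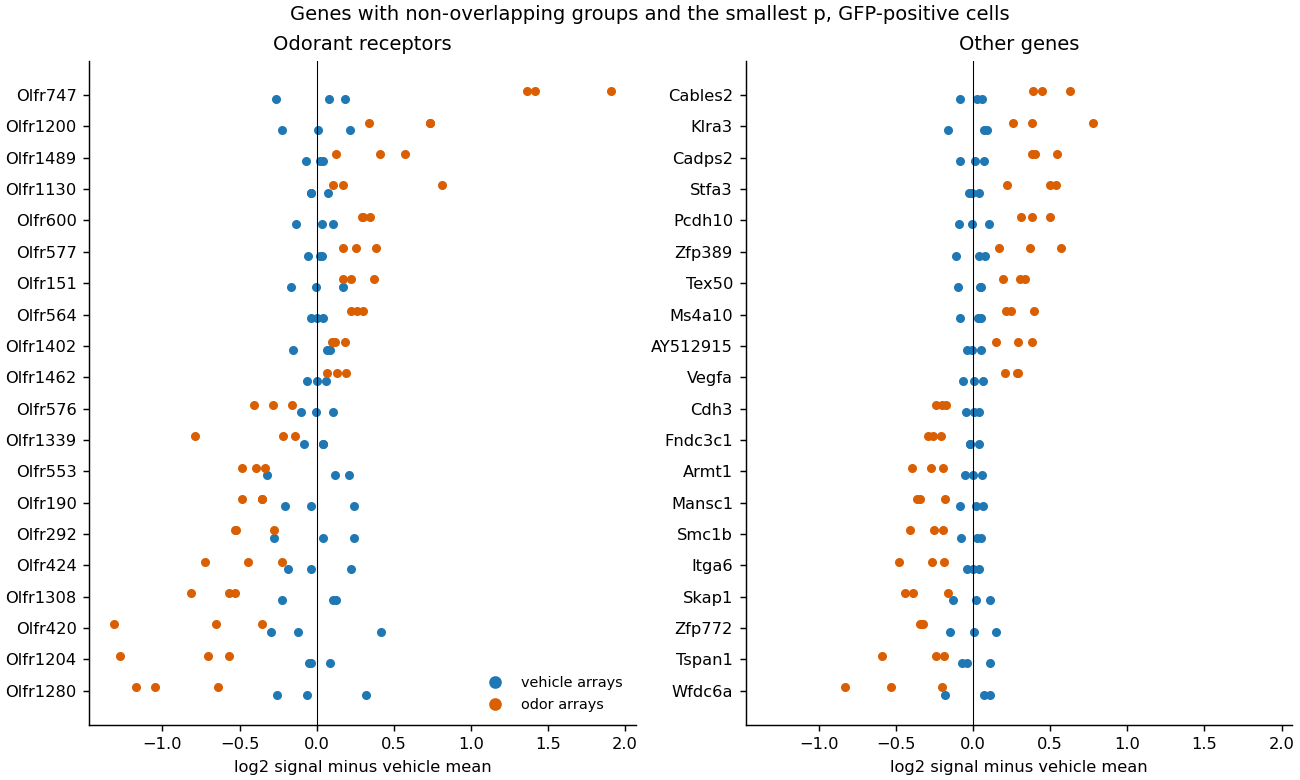
Log2 signal of single arrays minus the vehicle mean for the 10 genes higher and 10 lower with the smallest p among those whose groups do not overlap, odorant receptors on the left and other genes on the right; blue points are vehicle arrays and orange points odor arrays. Olfr747 stands at a difference of 1.57, and the other named genes lie between -0.96 and 0.60.

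By subfamily, class I receptors, which resemble those of fish, had a median difference of -0.12 (32 of 116 above 0) and class II receptors of -0.04 (350 of 883 above 0). Class I groups did not overlap for 3 receptors higher and 9 lower, 10.3% in all against 4.19% in class II and 7.93% of all genes, and 0 were called. Classes were read from the MOR family names, which 28 receptors lacked or had in conflict. Among 71 families with 5 or more members 49 had a median below 0, from -0.32 in MOR113 (5 members, -0.62 to -0.14) to 0.10 in MOR262 (10 members, -0.20 to 0.49). MOR105 held 2 of the lower receptors named above, Olfr420 and Olfr424, and had a median of -0.24 over 7 members (-0.78 to 0.10). Members of a family share sequence, so these family values are descriptions and not replicates.

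Receptors with well known ligands did not pass. Of 15 measured, 7 were above 0, the median was -0.07 (0.01 with receptors centred on their own array median), 1 (Olfr151) had an unadjusted p under 0.05, and 0 were called. Olfr2, the I7 receptor for octanal, an aldehyde found in citrus peel oils, read 8.17, 7.98 and 7.51 in odor mice and 8.25, 7.96 and 7.82 in vehicle mice. Those arrays overlap, and the interval of the difference, -0.65 to 0.41, leaves out a rise as large as that of Olfr747. Olfr73, a eugenol receptor, read 9.13, 9.04 and 9.45 against 9.12, 9.76 and 9.60 (-0.29, SE 0.19). Olfr16, also known as MOR23 and activated by lyral, read 8.33, 7.80 and 7.95 against 8.52, 8.49 and 8.19 (-0.37, SE 0.23). Olfr1440 and Olfr235, receptors for muscone, differed by 0.03 each (SE 0.31 and 0.19).

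Among the 18911 other genes none was called, and 227 had an unadjusted p under 0.05 (1.20%, 159 higher and 68 lower). That is below a share of 0.05, which evenly spread p values would give. Groups did not overlap for 880 of the other genes with odor higher and 653 with odor lower (4.65% and 3.45%). Cables2, a gene for a substrate of the kinases Cdk5 and Abl, had the smallest p. It read 5.21, 5.15 and 5.39 in odor mice and 4.82, 4.68 and 4.79 in vehicle mice (difference 0.49, SE 0.09, adjusted p = 1 in limma), with a clear gap between the groups.

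Among the other higher genes named by the rule, Cadps2, a priming factor for dense-core vesicle release, read 8.34, 8.18 and 8.20 against 7.81, 7.71 and 7.87 (0.44, SE 0.12). Pcdh10, an activity-dependent protocadherin, read 8.78, 8.97 and 8.85 against 8.38, 8.57 and 8.46. Vegfa, the angiogenic growth factor gene, read 7.26, 7.35 and 7.34 against 7.12, 6.99 and 7.06 (0.26, SE 0.07). For all 3 every odor array lay above every vehicle array, and none passed. The other 6 higher genes by the rule, Tex50, Klra3, AY512915, Ms4a10, Zfp389 and Stfa3, differed by 0.27 to 0.48. Stfa3, a stefin gene of neutrophils, was higher by 0.42 (SE 0.14), beside neutrophil genes whose values follow further down.

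On the lower side Cdh3, which encodes P-cadherin, read 8.46, 8.50 and 8.53 in odor mice and 8.66, 8.71 and 8.74 in vehicle mice (-0.21, SE 0.06). Itga6, integrin alpha 6 of horizontal basal cells, read 6.52, 6.44 and 6.23 against 6.75, 6.71 and 6.67 (-0.32, SE 0.10). Neither overlapped and neither passed. Krt5, the defining keratin of horizontal basal cells, differed by 0.03 (SE 0.11), and the 8 genes of that cell type had a median of 0.00 with 4 above 0. The other 8 lower genes, Fndc3c1, Zfp772, Armt1, Mansc1, Tspan1, Wfdc6a, Smc1b and Skap1, differed by -0.52 to -0.26.

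None of the genes that report activity or transduce odors was called. S100a5, whose probe set lay below the array medians, read 6.41, 6.34 and 6.32 in odor mice and 6.48, 6.29 and 6.29 in vehicle mice. The interval of the difference was -0.21 to 0.21. The reporter under the control of S100a5 was the basis of the sort in both groups, and the part of that gate in these values was not tested. Of the 13 activity-dependent genes 6 were above 0 (median 0.00), and 0 were called. An unadjusted p under 0.05 was found for Pcdh10 and Rasgrp4, 2 of 13 (15.4%, against 1.3% of all genes), in a list chosen with earlier results of these data known. Rasgrp4 read 9.52, 9.48 and 9.18 against 8.94, 9.32 and 9.02, which overlap. In vehicle mice the difference between GFP-positive and GFP-negative cells was -0.79 for Rasgrp4 and 1.23 for Pcdh10, so these 2 genes went opposite ways. The 10 low-activity genes had a median of -0.07 with 2 above 0.

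The 18 transduction genes differed by -0.07 to 0.05. Gnal, the olfactory G protein alpha subunit gene, read 13.35, 13.34 and 13.34 in odor mice and 13.37, 13.42 and 13.38 in vehicle mice, a separation of only -0.05 (SE 0.07). Adcy3, the adenylyl cyclase gene, differed by 0.01 (SE 0.10) and Cnga2, the channel gene, by -0.01 (SE 0.10). Axon guidance and identity genes had a median of -0.02 (5 of 20 above 0) and calcium and cAMP regulators of -0.01 (10 of 22 above 0). Regulators of receptor choice, among them Lhx2, Ldb1 and the heterochromatin genes, had a median of -0.01 over 18.

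Odor replicate 2 stood apart in the immediate early genes, which stimulated or stressed cells switch on within minutes. Fos read 7.90 there against 9.22 and 9.48 in the other odor arrays and 8.86, 9.35 and 9.26 in vehicle mice. Egr1 read 8.23 against 9.57 and 9.43 and against 9.09, 9.37 and 9.50. Of the 28 genes in the list 16 were lowest in that array, and the list's mean was 7.97 there and 8.14 to 8.25 in the other 5. The list's median difference was -0.02 (12 of 28 above 0), and 0.07 without that array. None was called, and Olfr747 differed by 1.66 without it (adjusted p = 0.0422, limma).

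The neutrophil genes were the list with the highest median, 0.22, with 13 of 14 above 0 and none with an unadjusted p under 0.05. Their mean level was 7.08, 7.72 and 8.30 in odor replicates 2, 3 and 4 and 7.23, 7.49 and 7.66 in vehicle replicates 1, 2 and 4. The odor arrays therefore held both the lowest and the highest value. Lcn2, a granule protein gene, read 9.12, 10.15 and 11.02 against 9.33, 9.54 and 9.96. In GFP-negative cells the list lay at 11.51 to 12.04. The median was -0.02 without odor replicate 4 and 0.66 without odor replicate 2, so these arrays set it, and the part of neutrophil RNA in other differences was not tested.

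**Figure D5:**
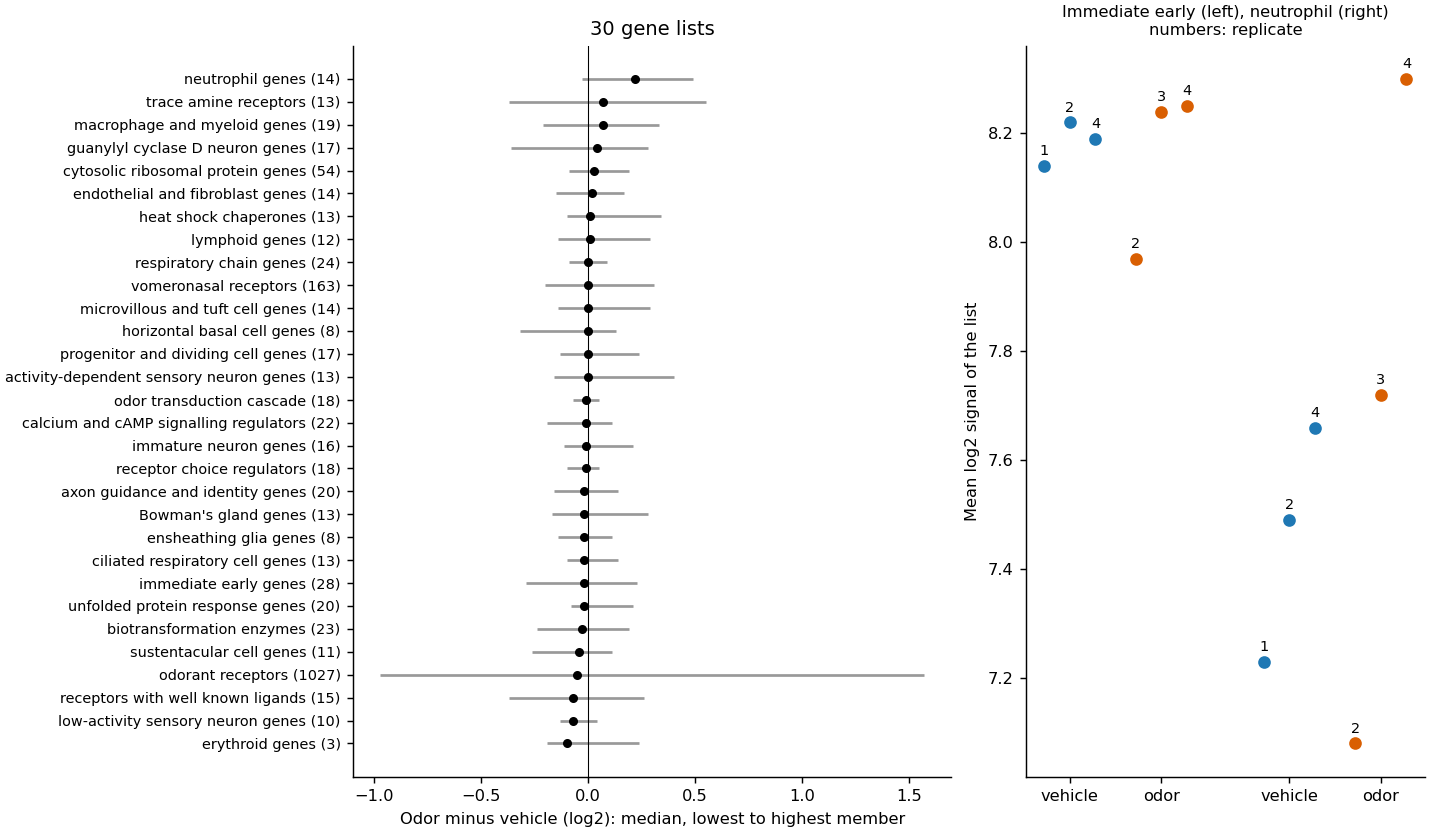
Left, odor minus vehicle difference (log2) of 30 gene lists, with the median as a point and the lowest to highest member as a line; right, mean log2 signal of the immediate early and neutrophil lists in each GFP-positive array, numbered by replicate. Medians of 29 lists lie within 0.1 of 0, and odor replicate 2 is the lowest array for both lists on the right.

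Genes of the other cell types of the mucosa held no call, and the sign of several medians turned when 1 array was left out. Sustentacular, or supporting, cell genes had a median of -0.04 (4 of 11 above 0), which was -0.22 without odor replicate 3 and 0.06 without odor replicate 4. Their Cyp2g1, a P450 enzyme gene, read 10.81, 11.42 and 10.68 against 11.19, 11.17 and 10.55. Bowman's gland genes had a median of -0.02 (4 of 13 above 0), in which Sox9, a gland transcription factor gene, differed by 0.22 (SE 0.08) with overlapping arrays. Microvillous and tuft cell genes had 0.00 (7 of 14), macrophage and myeloid genes 0.07 (11 of 19, and -0.10 without vehicle replicate 4), lymphoid genes 0.01 (6 of 12), immature neuron genes -0.01 (8 of 16) and progenitor and dividing cell genes 0.00 (9 of 17). Biotransformation enzymes, which clear odorants from the mucosa, had a median of -0.03 (10 of 23 above 0), which moved to -0.11 when vehicle replicate 4 was left out and to 0.07 when vehicle replicate 1 was. Outside the receptors the lists together covered 612 measured genes, and 0 of them were called.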

How the data were processed

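The deposited values are log2 signals of probe sets that the authors made with Affymetrix Expression Console on Mouse Gene 1.0 ST arrays per the submitters' processing notes. How signals were summarized, background-corrected and scaled is not stated in these sources. The values were used as deposited. Signal gives no count, so the number of arrays limits the precision.

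Of 35556 probe sets 21789 had 1 symbol and gave 19938 genes, and 1621 with several symbols and 12146 with none were left out. The 4 groups of 3 arrays were fitted in 1 model in limma 3.58.1 (R 4.3.3), without a block, with two-sided tests and Benjamini-Hochberg adjustment over all genes at 0.05. The median spread within groups (SD) was 0.0862 in GFP-positive and 0.138 in GFP-negative arrays, so the shared spread is wider than that of the groups compared. Intervals are 95%. The script was tested on simulated data.

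Odor and vehicle arrays with the same number in the sample code deviated together (r of 0.309, 0.185 and 0.268). Deviations were taken from group means and cancel out within a group, so some pairs correlate positively in any case. The pairing was chosen from these same correlations. Odor and vehicle arrays that share a title number gave r of -0.171 and 0.268. The code number was therefore taken as the pairing in the alternative fits named as such, and the main fit stayed unpaired.

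The members, lists and naming rule were chosen with earlier results of these data known. Named are, per direction, the 10 receptors and 10 other genes with the smallest p whose groups do not overlap, without predicted and small RNA genes, members of 30 lists and the relatives of a called receptor. Relatives were taken from the MOR family names. Olfr460, Olfr237, Olfr1176 and those list members that are not among the 4 with the smallest p were named after their values were seen.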

Additional observations from a re-analysis of the deposited data

Results flagged for a closer look

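The odor effect on Olfr747 differed between GFP-positive and GFP-negative cells, by 2.17 (SE 0.24, adjusted p = 0.0186 in limma), higher in all 3 odor arrays of the former and lower in all 3 of the latter.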

How the results depend on the processing

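Olfr747 stayed higher in odor mice in each of 20 alternative fits, and its adjusted p ran from 0.00176 to 0.394. Its call ended, leaving 0 genes and 0 receptors called, with cyclic loess (1.53, adjusted p 0.0632), with all probe sets tested together (1.57, 0.118), with the 2 GFP-positive groups alone (1.57, 0.394), with a replicate block by title number (1.42, 0.139) and with a replicate block by code number on GFP-positive arrays alone (1.57, 0.0746). With 1 array left out the difference ran from 1.40 to 1.66, and 0 to 1 genes and 0 to 1 receptors were called. The difference between fractions, 2.17, lost its call with a second quantile normalization (2.12), cyclic loess (2.05) and all probe sets (2.17), and ran from 2.00 to 2.27 with 1 array left out. Unadjusted p under 0.05 numbered 259 genes and 32 receptors, 660 and 73 with the 2 groups alone, 967 and 144 with the code block on those, and 917 and 93 with array weights. No other named gene passed in any fit (lowest adjusted p 0.101 for Olfr1280). The block with the code number changed no other call.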

Other observations

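Trace amine receptors, the second family of olfactory receptors, had a median difference of 0.07 in GFP-positive cells (8 of 13 above 0, -0.37 to 0.55), and 0 were called. That median was -0.06 without odor replicate 2. Taar2 read 5.70, 6.07 and 5.15 in odor mice and 5.23, 4.60 and 5.61 in vehicle mice, which overlap. Vomeronasal receptors, which the main olfactory epithelium hardly uses, had a median of 0.00 over 163 genes (85 above 0) at mean levels of 4.16 to 4.23 on all 6 arrays. Groups did not overlap for 8 of them higher and 3 lower (4.91% and 1.84%, against 4.49% and 3.45% of all genes), so by that measure their shares were close to or below those of all genes. By unadjusted p under 0.05 in limma the share was larger, 7 of 163 (4.29%, against 1.3% of all genes), with 5 higher and 2 lower, and 0 were called.

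Stress programs held no call. Heat shock chaperones had a median of 0.01 (7 of 13 above 0), in which Hspa1a, an inducible chaperone gene, read 10.68, 11.27 and 10.84 in odor mice and 10.83, 10.03 and 10.93 in vehicle mice. Unfolded protein response genes had a median of -0.02 (7 of 20 above 0). Cytosolic ribosomal protein genes had 0.03 (39 of 54) and respiratory chain genes 0.00 (13 of 24), and none of these lists held a call.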
